A study of Mus musculus with 2 samples.

Results

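Carcinoma cells of a mouse brain library that carried transcripts of Car9 or Pthlh, and that were low in mitotic genes and in Lcn2, numbered 915 of the 21259 cell barcodes in the series. They were chosen by gates on UMI counts (unique molecular identifiers, each marking 1 captured RNA molecule) in the library titled positive. A cell needed at least 8 UMIs of the epithelial genes Epcam, Krt8 and Krt18 together, at most 3 of the leukocyte genes Ptprc, Csf1r and Laptm5, and under 8 of the mitotic genes Top2a, Cenpf, Birc5, Ube2c and Ccnb1. Lcn2 had to be under 0.3% of its UMIs, and Car9 and Pthlh together had to reach at least 3 UMIs. The first 4 gates passed 2843 of the 10842 barcodes of that library, and the 915 were 32.2% of these (exact binomial 95% interval 30.5 to 33.9%) and 8.44% of the library. They are called Car9/Pthlh cells below, and the 898 gated cells without a UMI of either gene are called comparison cells. The remaining 1030 gated cells held 1 or 2 UMIs of the pair.

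The series holds 2 single-cell libraries of Balb/c mouse brain tissue, 1 titled control and 1 titled positive, made with the Singleron GEXSCOPE kit, a microfluidic chip that barcodes polyA RNA cell by cell. Both libraries are labelled as triple-negative breast cancer in molecular type. The treatment labels go against the titles: the one titled control is labelled as carrying metastasis of 4T1, a Balb/c mammary carcinoma line, and the one titled positive as free of it, so the groups are named by title only. The labels used here give neither the number, age nor sex of the animals nor whether animals were pooled. All results on the Car9/Pthlh cells come from this 1 library, so no difference has a replicate check, no test was made, and intervals cover counting error only.

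Depth and cell identity were checked before the levels were compared. The titled positive library held 98141261 UMIs with a median of 7383.5 per barcode and a lowest barcode of 3160, and the titled control library 55657687 UMIs with a median of 4230. The 2 libraries shared 149 barcode sequences, among them those of 4 Car9/Pthlh cells and 13 comparison cells. In the titled control library 10 of 10417 barcodes passed the first 4 gates and 1 passed all of them. The epithelial genes that the gates did not use were present in the Car9/Pthlh cells, Wfdc2 at 2284 and Krt7 at 968 CPM (UMIs summed over the cells of a group and scaled to a total of 1000000), against 216 and 90.7 CPM in 1073 leukocyte barcodes of the same library (at least 8 UMIs of the leukocyte genes and at most 3 of the epithelial genes). The Car9/Pthlh cells had a median of 10361 UMIs and 3052 genes, above the 6978 UMIs and 2437.5 genes of the comparison cells. With every cell thinned to 3000 UMIs the medians were 1419 and 1438 genes. The mitochondrial share of UMIs was alike, with medians of 3.67% and 3.69%.

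Car9 encodes carbonic anhydrase IX, a membrane enzyme that hydrates carbon dioxide outside the cell and is one of the best known targets of hypoxia-inducible factor (HIF). HIF binds short ACGTG or GCGTG motifs, the core of the hypoxia response element, and turns on genes for glycolysis, vessel growth and mitochondrial turnover when oxygen is low. Pthlh encodes parathyroid hormone-related protein, a secreted factor through which breast carcinoma cells in bone drive bone resorption, and which is also made by squamous and mammary epithelium. In GENCODE M21 on GRCm38, Car9 lies at chr4:43506966-43513729 on the plus strand and Pthlh at chr6:147252101-147264183 on the minus strand, and both are protein-coding. S100a4, Hmga2 and Msln, a calcium-binding protein of motile cells, a chromatin protein of embryonic and transformed cells and the surface glycoprotein mesothelin, had been named as further markers of these cells.

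The upstream sequences of the genes that turned out to travel with Car9 or with Pthlh are shown first, so that the HIF motif can be read beside the values. They are RefSeq sequences of build GRCm38.p6, 5′ to 3′ on the gene's strand, and end at the RefSeq start or at the first base of a GENCODE exon. Capitals mark ACGTG or GCGTG on either strand. For Car9, a 30-base stretch around its single motif is shown (chr4:43506996-43507025, plus strand), which lies in the first GENCODE exon just before the RefSeq start. The others are Bnip3 (chr7:138909520-138909756, minus strand), Pgk1 (chrX:106186850-106187099, plus strand), Pthlh (chr6:147264184-147264263, minus strand) and Areg (chr5:91139349-91139598, plus strand).
Car9: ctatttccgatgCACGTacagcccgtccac
Bnip3: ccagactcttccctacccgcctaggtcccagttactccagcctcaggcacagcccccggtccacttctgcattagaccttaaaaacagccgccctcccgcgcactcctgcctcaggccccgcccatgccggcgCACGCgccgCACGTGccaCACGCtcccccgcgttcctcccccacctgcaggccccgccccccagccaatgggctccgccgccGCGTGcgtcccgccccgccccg
Pgk1: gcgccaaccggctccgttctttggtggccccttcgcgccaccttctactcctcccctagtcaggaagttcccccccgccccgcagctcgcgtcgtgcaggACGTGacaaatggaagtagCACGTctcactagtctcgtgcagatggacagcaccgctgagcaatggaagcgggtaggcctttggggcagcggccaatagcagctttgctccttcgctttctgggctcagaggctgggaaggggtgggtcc
Pthlh: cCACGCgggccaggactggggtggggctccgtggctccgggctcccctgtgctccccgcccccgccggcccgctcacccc
Areg: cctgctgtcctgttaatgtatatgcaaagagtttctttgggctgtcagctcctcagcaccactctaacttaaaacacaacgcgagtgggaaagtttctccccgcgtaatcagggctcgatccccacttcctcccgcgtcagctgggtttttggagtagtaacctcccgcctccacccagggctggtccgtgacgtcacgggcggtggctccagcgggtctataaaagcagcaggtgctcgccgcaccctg
Bnip3 held 4 marked stretches, of which 3 lie close together in the middle of the window, and Pgk1 held 2. Pthlh held 2 in its 250 bases, of which 1 lies in the part shown. Areg held none in its 250 bases. Over all 27025 genes with a window of 250 bases before a start, 41.5% had the motif in at least 1 window. It was found in 17 of the 17 HIF target genes and 14 of the 16 glycolysis genes that could be matched by symbol, out of 22 and 17 listed. The AP-1 motif TGANTCA was in 7.82% of genes and in 2 of the 17 HIF target genes. The 250 bases of Car9 held 1 AP-1 motif and those of Pthlh held none. A match describes the letters only, and base composition was not matched between the groups.

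Car9 and Pthlh were found partly in the same cells and partly apart. Of the 915 cells, 152 (16.6%, 14.3 to 19.2%) had at least 3 Car9 UMIs and no Pthlh, 207 (22.6%, 19.9 to 25.5%) had at least 3 Pthlh UMIs and no Car9, and 556 (60.8%, 57.5 to 63.9%) had both. The summed counts were 2751 UMIs for Car9 and 2711 for Pthlh, and single cells reached 36 and 22 UMIs. Among all gated cells, 48.4% of Pthlh-positive and 36.4% of Pthlh-negative cells had Car9. Thinned to 3000 UMIs these shares were 28.0% (24.9 to 31.3%) and 22.1% (20.3 to 23.9%). The gap was narrower in percentage points, with both shares lower, and the intervals cover counting error only. The UMI threshold cut through a continuous range, since 253 cells stood at 3 UMIs, 398 at 2 and 632 at 1. At 3000 UMIs, 49.3% of the Car9/Pthlh cells kept a Car9 UMI and 53.4% a Pthlh UMI, values that the choice of cells fixes, against 4.01% and 1.12% of leukocyte barcodes, which should lack both.

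**Figure D1:**
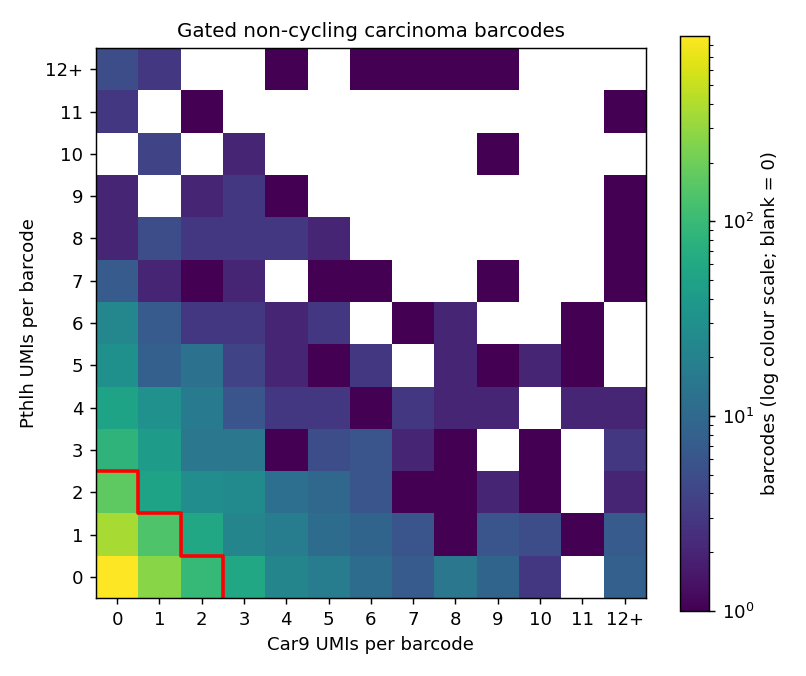
Number of gated non-cycling carcinoma cells (colour, log scale, blank where none) at each count of Car9 UMIs (x axis) and Pthlh UMIs (y axis), with 12 or more pooled in the last row and column. The red line bounds the cells under 3 UMIs in sum, and the 915 cells beyond it spread along both axes and the space between with no gap at the line.

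The rule was not particular to non-cycling cells. In cycling carcinoma cells (at least 8 mitotic UMIs), 682 of 2216 (30.8%, 28.9 to 32.7%) reached 3 UMIs of Car9 and Pthlh. In Lcn2-high carcinoma cells it was 72 of 1103 (6.53%, 5.14 to 8.15%), and in leukocyte barcodes 1 of 1073. Median depth was 13668 UMIs in cycling, 8199 in Lcn2-high and 8752 in all gated cells. The level of Car9 was 127 CPM over all gated cells, 68.3 CPM in cycling, 48.5 CPM in Lcn2-high cells and 14.6 CPM in leukocyte barcodes. Pthlh stood at 134, 93.1, 19.8 and 3.82 CPM in the same order. In the titled control library 102 of 10417 barcodes had a Car9 UMI (0.979%) and 54 had a Pthlh UMI (0.518%).

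Compared with the comparison cells, the Car9/Pthlh cells had higher levels of HIF target genes and of glycolysis genes. A gene was counted as higher or lower when the ratio of CPM passed 1.5-fold, among 7405 genes with at least 200 UMIs over both groups and with the gate genes left out. Of these, 121 genes (1.63%) were higher and 265 (3.58%) lower, and the median log2 ratio of all 7405 was -0.048. The cells were chosen by transcripts measured in the same cells, so these ratios describe the chosen cells and are not independent evidence. Of the 22 listed HIF target genes outside glycolysis, 18 had enough UMIs, 14 of the 18 were higher, none was lower, and the list's median log2 ratio was 0.99. The other 4 were rare in both groups, Angptl4 with 18 and 25 UMIs, Stc2 with 6 and 9, Lox with 7 and 23 and Pfkfb4 with 37 and 44. Of 17 glycolysis and glucose uptake genes, 15 had enough UMIs, 9 were higher, none was lower, and the median was 0.63.

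Bnip3, a mitochondrial outer membrane protein that promotes removal of mitochondria, was at 295 CPM (284 to 306) in the Car9/Pthlh cells and 81.1 CPM (74.6 to 88.0) in the comparison cells, a log2 ratio of 1.86 (1.73 to 1.99). Ndrg1, a hypoxia and stress response gene, was at 444 and 123 CPM (1.85). These were the 2 highest ratios under the naming rule. Adm, the vasodilator and vessel-promoting peptide adrenomedullin, was at 38.5 and 12.9 CPM (1.58). The collagen-modifying enzymes Plod2 and P4ha1 had log2 ratios of 1.49 and 1.20, the oxidative folding enzyme Ero1l 1.29, and Ankrd37 1.39. Fam162a was at 598 and 264 CPM (1.18), Vegfa, the main angiogenic factor, at 38.5 and 18.9 CPM (1.02), and the HIF hydroxylases Egln3 and Egln1 had ratios of 0.86 and 0.84. The HIF-inducible genes Ddit4, an inhibitor of mTOR signalling, and Hilpda, a lipid droplet protein, did not share in this, with 117 and 110 CPM (0.08, -0.05 to 0.22) and 49.2 and 44.3 CPM (0.15, -0.06 to 0.36).

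Along glycolysis the differences were smaller and covered most steps. Pgk1 (phosphoglycerate kinase) was at 284 and 120 CPM (1.24, 1.13 to 1.36), Aldoa (aldolase) at 1354 and 735 (0.88), Ldha (lactate dehydrogenase) at 1685 and 1004 (0.75) and Gapdh at 4303 and 2772 (0.63). Pdk1, the kinase that keeps pyruvate out of the mitochondrion, was at 27.2 and 11.9 CPM (1.19). Hk2, a hexokinase, was the lowest of the list at 30.1 and 26.1 CPM (0.20, -0.07 to 0.47). The glucose transporter Slc2a1 was at 107 and 78.4 CPM (0.45), and its ratio was 1.13 once barcodes with markers of other cell types, which are described further on, were left out. Genes of oxidative phosphorylation showed no such shift. None of 14 nuclear genes and none of 7 mitochondrial genes with enough UMIs passed 1.5-fold, with medians of -0.12 and 0.05.

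**Figure D2:**
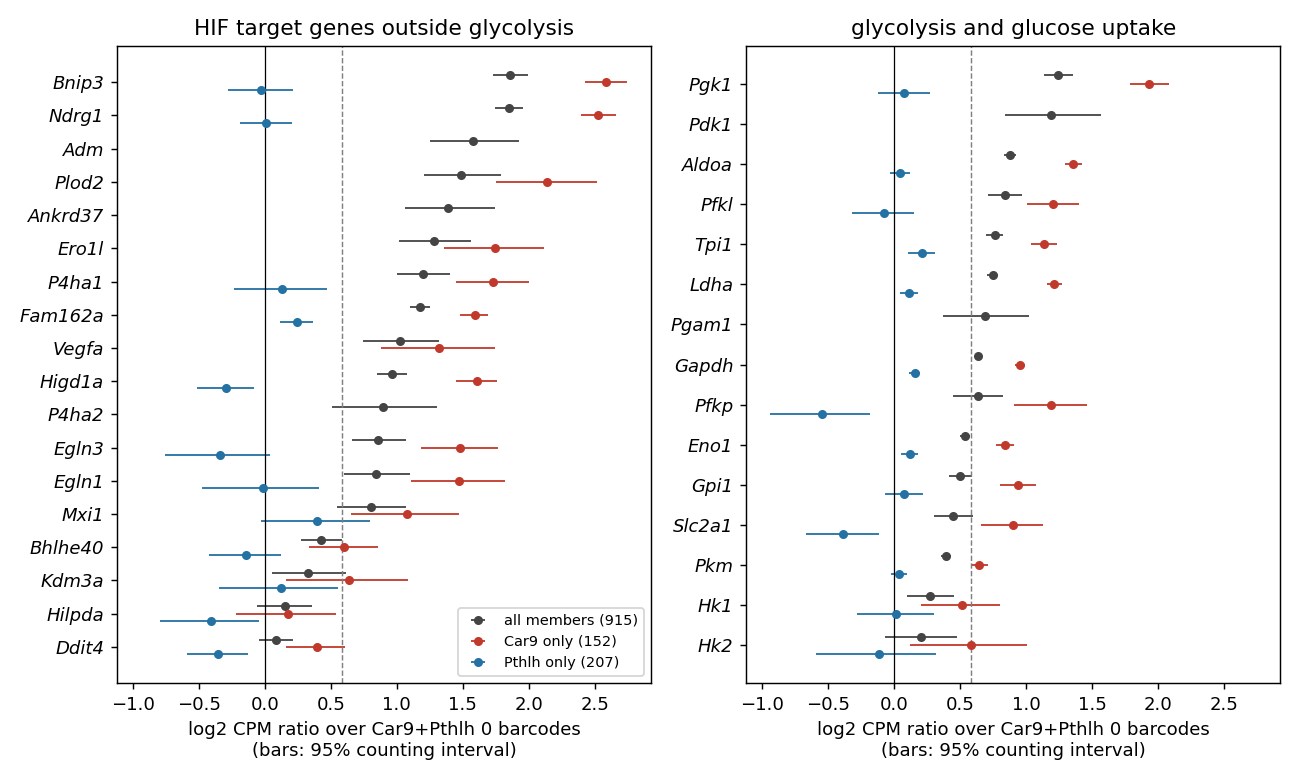
Log2 CPM ratio over the comparison cells (x axis) for each HIF target gene and glycolysis gene with enough UMIs (y axis), for all 915 Car9/Pthlh cells (grey), the 152 Car9-only cells (red) and the 207 Pthlh-only cells (blue). Bars are 95% counting intervals, the dashed line marks 1.5-fold, and a point is missing where a comparison had under 200 UMIs; red points lie to the right of grey ones and blue points lie around 0.

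Higher HIF target levels were found in cells with Car9 and not Pthlh, and hardly in cells with Pthlh and not Car9. Car9 is itself a HIF target, and Pthlh-only and comparison cells were both chosen for having no Car9 UMI. This split is therefore not independent of the rule. In the Car9-only cells 13 of 15 HIF target genes with enough UMIs were higher than in the comparison cells, with a median of 1.48, where 2.62% of 5311 genes were higher. In the Pthlh-only cells none of 12 was higher, with a median of -0.02, where 1.11% of 5568 genes were higher. Glycolysis genes were higher in 11 of 13 with Car9 only (median 0.95) and in none of 13 with Pthlh only (0.04). Bnip3 was at 487 CPM in Car9-only cells, 328 in cells with both transcripts, 79.3 in Pthlh-only cells and 81.1 in comparison cells. Ndrg1 was at 710, 498, 124 and 123 CPM in the same groups. Without the barcodes that carry markers of other cell types, the log2 ratio of Bnip3 in Pthlh-only cells moved from -0.03 to 0.32, and to 0.46 with the comparison cells also weighted to the same depth.

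Set directly against each other over 2789 genes, Car9-only and Pthlh-only cells differed in 89 genes higher with Car9 (3.19%) and 93 higher with Pthlh (3.33% lower with Car9), with a median log2 ratio of -0.046 over all of them. All 8 HIF target genes and 11 of the 12 glycolysis genes with enough UMIs were higher with Car9. The gene with the widest ratio was Krt14, a keratin of basal epithelium, at 205 CPM (182 to 229) with Car9 only and 19.9 CPM (14.5 to 26.7) with Pthlh only, a log2 ratio of 3.34. At 3000 UMIs, 38 of the 152 Car9-only cells and 9 of the 207 Pthlh-only cells kept a Krt14 UMI. The imprinted RNA H19 had 245 and 48.8 CPM (2.33), while 13.8% (8.76 to 20.3%) and 9.66% (upper bound 14.5%) of cells kept a UMI of it, so its higher level came with no clear difference in the share of cells. S100a14, Higd1a (a hypoxia-induced mitochondrial protein), the metallothionein Mt1 and Pgk1 completed the 8 highest with log2 ratios of 2.33, 1.90, 1.89 and 1.86.

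On the Pthlh side the widest ratio was that of Mmp3, the matrix metalloproteinase stromelysin-1, at 286 CPM with Pthlh only against 115 with Car9 only (-1.32). Next came DNA synthesis genes: Rrm2, a ribonucleotide reductase subunit (-1.30), Gins2 (-1.08) and Mcm2 (-1.06) of the replicative helicase, and thymidine kinase Tk1 (-1.03). Mcm2 was at 201 CPM in Pthlh-only, 96.1 in Car9-only, 160 in comparison and 114 in cycling carcinoma cells. Rrm2 was at 81.1, 32.7, 84.3 and 190 CPM in the same order. Of 14 cell cycle genes outside the gate, 10 were lower in Car9-only cells than in comparison cells (median -0.70), where 6.57% of 5311 genes were lower. Over all Car9/Pthlh cells 4 of the 14 were lower (median -0.32), the proliferation marker Mki67 at 25.2 and 50.1 CPM (-0.99). In Pthlh-only cells 3 were lower (median 0.04), where 3.61% of 5568 genes were lower. The gate on mitotic genes removes cells with many of their transcripts. It counts none of the DNA synthesis genes named above, so non-cycling here means few mitotic UMIs only. It is a fixed count of UMIs, so it is stricter relative to depth in deeper cells. Median depth was 9009 UMIs in Car9-only, 10618 in Pthlh-only, 10361 in all Car9/Pthlh and 6978 in comparison cells. The part of this gate in these ratios was not tested. Upp1 (-1.04), Prps1 (-1.02) and Rgs16 were the other named genes on this side.

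Counted cell by cell at 3000 UMIs, the 22 HIF target genes gave a median of 7 UMIs in Car9-only cells, 5 in cells with both transcripts, and 3 in Pthlh-only, intermediate and comparison cells alike. At least 10 such UMIs were found in 38.8% of Car9-only cells and 24.6% of cells with both. The share was 1.93% in Pthlh-only cells, 4.76% in cells with 1 or 2 UMIs of the pair and 1.56% in comparison cells. The Car9/Pthlh cells as a whole ran from 0 to 63 HIF target UMIs with a median of 5, and 21.9% had at least 10, so most of them overlapped the comparison cells in this count.

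**Figure D3:**
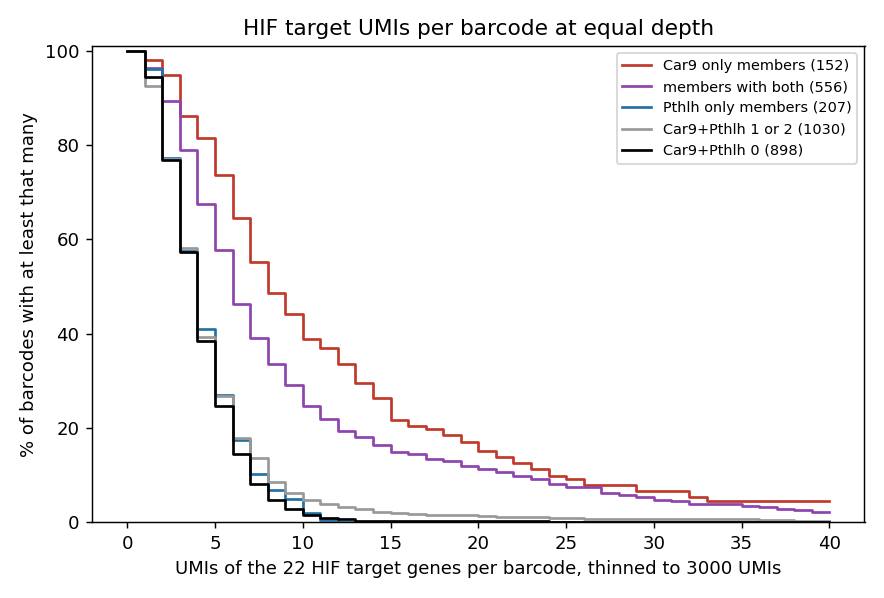
Percentage of cells (y axis) with at least the given number of HIF target UMIs (x axis), each cell thinned to 3000 UMIs, for Car9-only cells, cells with both transcripts, Pthlh-only cells, cells with 1 or 2 UMIs of the pair and comparison cells. At 10 UMIs the Car9-only curve stands at 38.8% and the Pthlh-only curve at 1.93%.

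The genes most like Car9 and most like Pthlh were taken as those with the highest ratio between gated cells with at least 3 UMIs of it and gated cells with none. For Car9 (413 against 1636 cells) they were Adm, Bnip3, Ndrg1, Pgf, Ankrd37, Krt14, Prelid2 and Ero1l, with log2 ratios from 2.81 to 2.04. Of these, 5 had a promoter window and all 5 held the HIF motif, against 41.5% of all genes. Adm, Bnip3, Ndrg1, Ankrd37 and Ero1l are also on the HIF target list. This count therefore overlaps with that of the list and is not separate support. For Pthlh (478 against 1412 cells) they were Il11, Areg, Nppb, Dynap, Enpp1, Dusp2, Mmp3 and Csgalnact1, with log2 ratios from 1.66 to 1.00. Of these, 6 had a window, 2 held the HIF motif and 2 the AP-1 motif, against 41.5% and 7.82% of all genes. Il11 is a cytokine known, like Pthlh, for breast cancer bone metastasis, and it stood at 39.4 CPM in Pthlh-only, 11.6 in Car9-only and 12.4 in comparison cells. Areg encodes the EGF receptor ligand amphiregulin. It is listed in the files under another symbol with a suffix and was identified by its gene identifier. It was at 354 CPM with Pthlh only, 244 with Car9 only, 362 with both and 130 in comparison cells, so it was high on both sides. The 2 genes overlap in their cells, so each list also holds part of the other: Pthlh itself had a log2 ratio of 0.73 in the Car9 comparison, and Car9 0.65 in the Pthlh comparison.

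Of the 20 listed genes of the PTHrP pathway and bone metastasis, 12 had enough UMIs and Il11 alone passed 1.5-fold (30.5 against 12.4 CPM, 1.29). The receptor gene Pth1r had 1 UMI in the Car9/Pthlh cells and 4 in the comparison cells, and Tnfsf11 and Tnfrsf11b, which encode the osteoclast regulators RANKL and osteoprotegerin, had at most 8 UMIs in either group. The TGF-beta genes Tgfb1, Tgfbr1 and Tgfbr2 and the mediators Smad2 and Smad3 had log2 ratios between -0.09 and 0.27. Among 7 genes of pH and bicarbonate handling, Car12, a second membrane carbonic anhydrase, was higher (log2 ratio 1.46 from 187 and 49 UMIs). Car2 was lower (-2.62), but at -0.25 without barcodes carrying markers of other cell types.

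Of the markers named for these cells, S100a4 was higher, Hmga2 slightly so and Msln was at about the same level. S100a4 was at 540 CPM (log2 ratio 0.61, 0.54 to 0.68) against 355 CPM, and at 3000 UMIs 68.0% and 51.3% of cells had a UMI. Without barcodes of other cell types its ratio was 0.49, under 1.5-fold. Hmga2 was at 268 and 224 CPM (0.26, 0.17 to 0.35). Msln was at 357 and 354 CPM (0.01, -0.06 to 0.09), and its log2 ratio lay between -0.19 and 0.085 over the alternatives. The levels of these 3 genes were far lower in leukocyte barcodes, at 49.8, 22.9 and 31.8 CPM. In Lcn2-high cells they were 102, 183 and 127 CPM, and in cycling cells 421, 218 and 421 CPM. All 3 were thus found across the gated and cycling carcinoma cells, and Msln did not set the Car9/Pthlh cells apart within them.

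Across the gated cells, levels of Bnip3, Ndrg1 and Pgk1 were higher in each class with more UMIs of the pair. The classes are built from the UMIs that the rule used, and Car9 is a HIF target, so this trend is not independent of the rule. Car9 and Pthlh were not separated within the classes. In Pthlh-only cells Bnip3 was at 79.3 CPM, against 81.1 in comparison cells. From 0 over 1, 2, 3, 4 to 5, 6 to 9 and 10 or more UMIs of Car9 and Pthlh, Bnip3 was at 81.1, 87.8, 127, 142, 206, 347 and 639 CPM. Ndrg1 reached 1023 CPM and Pgk1 522 CPM in the 124 cells of the last class. Cells just inside the rule, at 3 UMIs, had 142 CPM of Bnip3 and those just outside, at 2 UMIs, had 127 CPM, with most of the range lying above 5 UMIs. S100a4 ran from 355 to 585 CPM, Areg from 130 to 543 and H2-Ab1 from 487 down to 250, while Msln stayed between 314 and 399 CPM without a direction. Median depth was 6978 UMIs in the first class and 11713 in the last, but 9886 in the class at 2 UMIs and 9701 in that at 3. Its part in these levels was not tested beyond the depth-weighted and thinned values in the closing section.

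**Figure D4:**
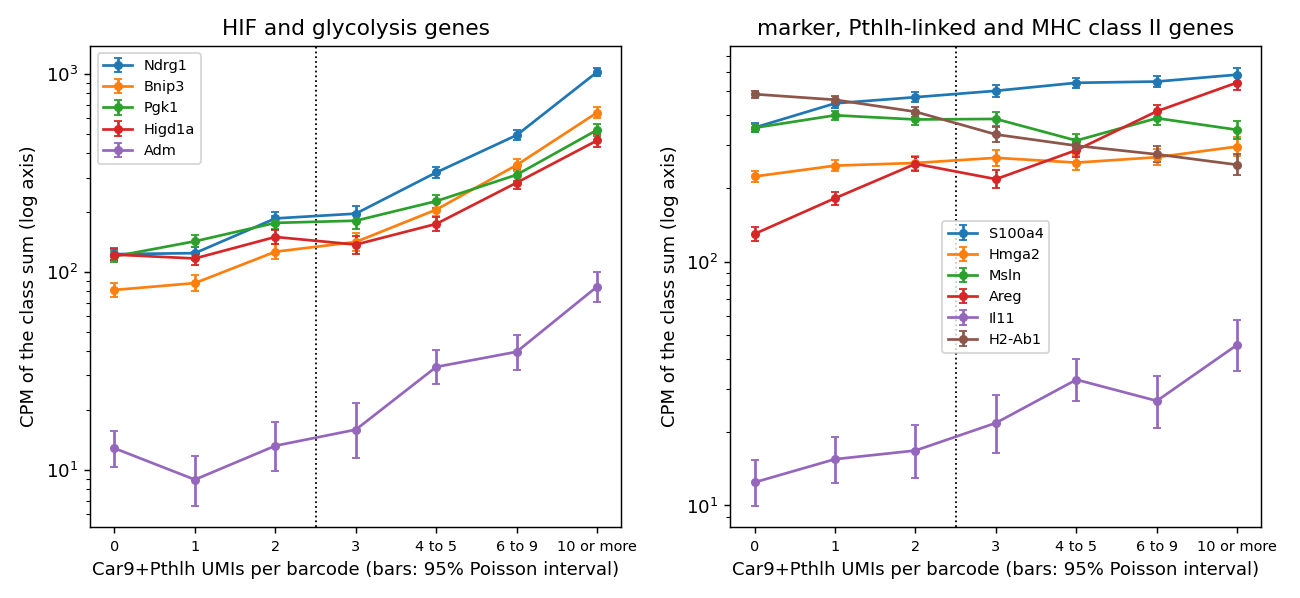
Level in CPM (log axis) of HIF and glycolysis genes (left) and of marker, Pthlh-linked and MHC class II genes (right) in gated cells grouped by their sum of Car9 and Pthlh UMIs (x axis). Bars are 95% Poisson intervals and the dotted line is the rule's threshold; Ndrg1 runs from 123 to 1023 CPM and Msln is at 354 CPM in the first and 347 CPM in the last class.

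Genes of matrix remodelling and immediate early response were also higher in part. Over all 7405 genes 1.63% were higher and 3.58% lower. Of 18 matrix protease and adhesion genes 5 were higher, among them Mmp10 (25.9 and 8.67 CPM, 1.57), the laminin-332 chains Lama3 (0.99) and Lamb3 (0.82), and Mmp3 (0.67). Plau and Plaur, the urokinase protease and its receptor, had log2 ratios of 0.92 and 0.68 in Pthlh-only cells and of 0.49 and -0.19 in Car9-only cells. Cycling carcinoma cells had Mmp3 at 194, Plau at 121 and Plaur at 246 CPM, against 210, 121 and 257 CPM in the Car9/Pthlh cells. Mmp10 was at 14.6 CPM in cycling cells. Of 15 AP-1 and immediate early genes 5 were higher (Atf3 0.79, Ier3 0.77, Nr4a1 0.74, Dusp1 0.61 and Fosb 0.61), and the list's median was 0.38. Among 13 chemokine and cytokine genes the neutrophil chemokine Cxcl1 (305 and 131 CPM, 1.21) and the cytokine Lif (0.91) were higher, and Cxcl10 was lower (62.8 and 122 CPM, -0.95). Cxcl1 was also at 304 CPM in Lcn2-high carcinoma cells, and at 166 CPM in cycling cells. Of 6 angiogenic factors Adm, Vegfa and Pgf (placental growth factor, log2 ratio 2.24 from 185 and 28 UMIs) were higher and Angpt2 was lower (-0.79). Pgf was at 18.8 CPM in the Car9/Pthlh cells, 17.0 in Lcn2-high and 5.89 in cycling cells. Both Pgf and Angpt2 fell under 200 UMIs once barcodes of other cell types were left out. Of 6 cell cycle arrest genes Ccng2 was higher (0.71), and Cdkn1a, the p21 inhibitor, was the lowest at -0.56 but stood at 0.48 without those barcodes. Of 13 epithelial junction and keratin genes Krt14 (110 and 38.6 CPM, 1.51) and Krt15 (0.73) were higher. Of 11 mesenchymal genes S100a4 and Snai1, a repressor of E-cadherin (0.82), were higher and Sparc was lower (-0.75, but -0.17 without barcodes of other cell types).

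MHC class II genes were lower, and most MHC class I and interferon genes stood below 0 without passing 1.5-fold. Of 6 MHC class II genes, which epithelial cells express under interferon gamma, 4 were lower, with a median of -0.63. Over all 7405 genes 3.58% were lower. Cd74, the class II chaperone, was at 1765 CPM against 2695 (-0.61), and H2-Ab1 at 294 against 487 (-0.73). In the Car9-only cells 5 of 5 with enough UMIs were lower (median -0.85), where 6.57% of 5311 genes were lower. In the Pthlh-only cells it was 1 of 5 (-0.49), where 3.61% of 5568 genes were lower. None of 10 MHC class I genes passed 1.5-fold, though all 10 were below 0 (median -0.27; H2-K1 3369 and 3990 CPM). Reads of H2 genes can be assigned to near-identical family members, so single values are uncertain. Of 15 interferon response genes 2 were lower, Ifi27l2a (56.4 and 112 CPM, -0.99) and Irf7 (77.2 and 118 CPM, -0.61), with a median of -0.32. Of 13 amino acid and unfolded protein stress genes the amino acid transporter Slc7a5 (17.2 and 31.7 CPM, -0.89) and the serine synthesis enzyme Psat1 (78.7 and 133 CPM, -0.76) were lower. None of 10 oncofetal and secreted carcinoma genes passed 1.5-fold.

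The lowest ratios belonged largely to genes known from plasma cells, neurons and choroid plexus. The 12 lowest named genes were Gal, Jchain, Igha, Nts, Stmn2, Igkc, Ttr, Ackr1, Ubd, Tubb3, Nap1l5 and Nkx6-2, with log2 ratios from -7.12 to -2.90. Among these, 548 of the 557 Gal UMIs and 3184 of the 3285 Igkc UMIs in the comparison cells lay in 1 barcode each. For the first 7 of the 12 genes, 1 barcode held between 76.9% and 98.4% of the UMIs of the comparison cells. Every marker list of another cell type except the astrocyte list summed to a higher level in the comparison cells. The 8 oligodendrocyte markers summed to 2237 CPM there and 456 in the Car9/Pthlh cells, with all 8 detected in both, and were at 0.3% or more of the UMIs in 52 and 5 cells. The 8 endothelial markers summed to 1232 and 485 CPM, and 75 and 21 cells were at that level. Neuronal markers were near absent in the Car9/Pthlh cells at 6.50 CPM, with Rbfox3, Syt1, Nefl and Gad1 at 0, and were at 87.0 CPM in the comparison cells. The 8 astrocyte markers summed to 1118 CPM in the Car9/Pthlh cells and 975 in the comparison cells, with all 8 detected in both and medians per cell of 0.0908% and 0.0605% of the UMIs. Most of this was Clu, the secreted chaperone clusterin, at 769 and 718 CPM (0.10), and the gap junction gene Gja1 at 300.4 and 189 CPM (0.67), while the defining markers Aqp4 and Slc1a2 were at 0.51 and 0.61 CPM in the Car9/Pthlh cells.

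Leaving out every barcode with 0.3% or more of its UMIs from another cell type's list, the astrocyte list excepted, removed 35 Car9/Pthlh and 129 comparison cells. Over the remaining 880 and 769 cells, 118 of 7065 genes (1.67%) were higher and 123 (1.74%) lower. The HIF list then had 14 of 18 genes higher (median 1.08), and Bnip3 a ratio of 2.14. With the astrocyte list applied as well, 81 and 175 cells were removed, 106 genes were higher and 114 lower, 14 HIF target genes were higher (median 0.98), and Bnip3 had a ratio of 2.06. Of the astrocyte genes with enough UMIs, Gja1 (0.61) and the glycolytic aldolase Aldoc (42.5 and 21.8 CPM, 0.96) were higher over the 880 and 769 cells. The lowest genes became Ltf, the secretory protein lactoferrin (13.5 and 45.6 CPM, -1.76), the interferon gamma-induced chemokines Cxcl11 (-1.32) and Cxcl9 (-1.23), Serpina3g (-1.31) and Casp1 (-1.16). Hmox1, heme oxygenase, entered the 15 highest at 27.1 and 9.74 CPM (1.47). Doublet calling marked 5 Car9/Pthlh cells (0.546%) and 19 comparison cells (2.12%).

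**Figure D5:**
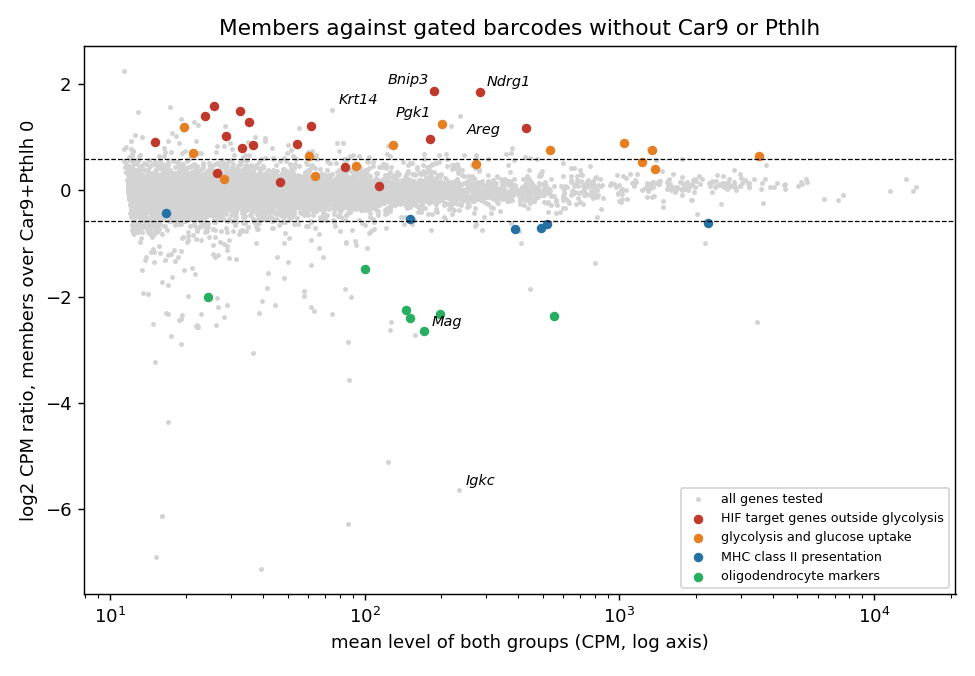
Log2 CPM ratio of Car9/Pthlh over comparison cells (y axis) against the mean level of both groups in CPM (x axis, log scale) for the 7405 genes with enough UMIs, with 4 lists in colour. Dashed lines mark 1.5-fold; HIF target and glycolysis genes lie at or above 0, MHC class II genes below 0, and oligodendrocyte markers and Igkc well below 0.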

How the data were processed

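Per gene and barcode, the matrices deposited by the authors give unscaled whole-number UMI counts. Per the submitters' processing notes they come from Cell Ranger on build GRCm38, with no version; annotation and strand setting are not stated in any source used. Total counts were 55657687 (titled control, 10417 barcodes) and 98141261 (titled positive, 10842 barcodes). The cells, gene lists and rules were chosen with earlier results of these data known.

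All deposited barcodes were used as the gates are written. Summed UMIs of a group's cells were scaled to their total as CPM, with exact Poisson 95% intervals. Log2 ratios used a pseudocount of 0.5 counts and conditional exact binomial intervals, and shares used exact Clopper-Pearson intervals. No test was possible with a single library. A gene needed at least 200 UMIs over both groups, and past 1.5-fold counted as higher or lower. Cell-level counts used cells thinned to 3000 UMIs, which left out no cell. Intervals and ratios were tested on simulated independent Poisson counts, which do not carry the spread between cells.

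Genes were named by rule: the 15 highest and 12 lowest ratios among genes with at least 20 CPM in the higher group, the 8 highest and 8 lowest between Car9-only and Pthlh-only cells, the 8 most like Car9 and Pthlh, the given markers, and of each list the genes past 1.5-fold, the highest and the lowest. Other genes, such as Hilpda, Slc2a1, Plau, Plaur, Pth1r, Tnfsf11, H2-K1 and the TGF-beta genes, were chosen after their values were seen. Of the file symbols, 17 with a suffix were replaced by the symbol of their gene identifier. Doublets were called with Scrublet in scanpy 1.11.5 only for an alternative. Python 3.11.15, numpy 2.4.6, scipy 1.17.1 and pandas 2.3.3 were used. Alternatives changed depth weighting, gates, filters, scaling, pseudocount and fold, and leaving out barcodes with other cell types' markers (0.3% of UMIs), both without and with the astrocyte list, was added after the data had been seen. Elsewhere, barcodes of other cell types left out means without the astrocyte list. One gene that the naming rule covers is not reported here.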

Additional observations from a re-analysis of the deposited data

How the results depend on the processing

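No paired analysis was possible because the compared groups are all cells of a single library. The HIF target count of 14 and the glycolysis count of 9 in the Car9/Pthlh cells stayed within 1.5 times in all alternatives except 5 HIF target genes at a minimum of 1000 UMIs, where fewer genes are tested, and 9 HIF target and 2 glycolysis genes at 2-fold. In Car9-only cells the 13 HIF target genes became 6 with 0 leukocyte UMIs, 6 under 3 mitotic UMIs and 4 at a minimum of 1000 UMIs. The stricter gates leave fewer cells, so fewer genes can reach 200 UMIs. The number of list genes with enough UMIs was not recorded at these settings. The counts therefore cannot be read as shares, and the part of the smaller groups in them was not tested. In Pthlh-only cells the count of 0 became 1 with thinned cells, at 5 UMIs of the pair and at the one fold threshold below 1.5. Over the 11 alternatives in cells, depth or weighting, the list's median was 1.37 to 1.96 in Car9-only cells and -0.15 to 0.11 in Pthlh-only cells. Genes higher overall were 220 with thinned cells, 254 at a minimum of 50 UMIs, 46 at 1000, 451 at the fold threshold below 1.5 and 27 at 2-fold. Genes lower were 437, 891, 56, 900 and 98 in the same order, 150 with 0 leukocyte UMIs, 123 without barcodes of other cell types and 153 with depth weighting as well. For thinned cells the minimum of 200 UMIs was applied to the unthinned sums, so genes with fewer thinned UMIs were counted too. At a minimum of 50 or 1000 UMIs the number of genes tested also differs. The share of gated cells was 46.2% at 2 UMIs of the pair, 17.4% at 5, 30.2% at 3 per 10000 UMIs and 34.0% under 3 mitotic UMIs. The share of Pthlh-positive cells with Car9 was 28.0% thinned and 51.7% under 3 mitotic UMIs. The log2 ratio of S100a4 was 0.68 thinned, 0.41 with 0 leukocyte UMIs, 0.49 without barcodes of other cell types and 0.51 with depth weighting as well. Hmga2 had 0.15 and 0.16 under the last pair of settings, and Msln -0.088 and -0.19, and -0.081 with depth weighting alone. Leaving out barcodes by the astrocyte list as well gave 114 genes lower, a share of gated cells of 34.0%, and ratios of 0.47 for S100a4, 0.14 for Hmga2 and -0.11 for Msln. The direction turned for Igkc (0.68 under 3 mitotic UMIs) and Nap1l5 (0.057 without barcodes of other cell types and with depth weighting). The cause of these shifts was not tested. Median ratio scaling and a pseudocount of 5 left every count named here within 1.5 times. Depth limits the genes that can be compared in the 152 Car9-only and 207 Pthlh-only cells, where Adm, Ankrd37 and Il11 fell under 200 UMIs in the comparison.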
